A study of Mus musculus with 35 samples.

Results

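Immediate early genes are transcribed within minutes of a growth factor, a mechanical stimulus or a stress, without new protein synthesis, and their mRNAs are short-lived. Growth factors such as FGF2 act through receptor tyrosine kinases and the ERK kinases, which phosphorylate ternary complex factors bound with serum response factor (SRF) at the promoters of Fos and Egr1, and CREB family proteins bind the cyclic AMP response element of Fos. The Fos and Jun proteins they encode pair to form AP-1, a transcription factor that binds DNA as a dimer. In mouse pluripotent cells, FGF and ERK signalling drives the exit from the naive state, and dissociation of a tissue by enzymes is itself a known trigger of these genes.

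The 10 genes described here were Fos, Fosb, Fosl1, Jun, Junb, Jund, Egr1, Ier2, Ier3 and Nr4a1, taken by symbol from the 54446 genes of the expression table. They were chosen from the readout, because Fosb was high in the libraries of 3D epiblast stem cells (EpiSC) made from embryonic stem cells (ESC), so the values of that culture are given as a description without a test. The table held 27 bulk RNA-seq libraries of mouse cells, with 3 libraries in each of 9 groups, all labelled wild type. The 5 in vivo groups were the inner cell mass (ICM) at embryonic day (E) 3.5 and the epiblast at daily intervals from E4.5 to E7.5, from untreated embryos labelled CD-1 of both sexes. By the study's methods, embryos came from matings of CD-1 or Pdgfra:H2B-GFP reporter mice, and their sex was not determined. The reporter line was used at E4.5 to tell epiblast from primitive endoderm, so line and stage cannot be told apart there. Each E3.5 and E4.5 library pooled 10 embryos, and each later library pooled 3 to 5. The 4 in vitro groups were EpiLC (ESC grown for 48 h with FGF2 and Activin A), 2D EpiSC (converted from ESC with FGF2 and Activin A), embryo-derived 3D EpiSC and ESC-derived 3D EpiSC. Both 3D cultures grew as spheroids in Matrigel with FGF2, Activin A, the tankyrase inhibitor XAV939, which lowers Wnt signalling, and the BMP antagonist Noggin. Whether replicates were separate cultures is not given in the labels, so p-values measure the spread between libraries, which may be partly technical.

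Values are TPM, relative transcript levels that correct for gene length and sum to 1000000 in each library, so the sequencing depth is unknown. The in vitro libraries were made from poly-A captured RNA and the in vivo libraries from ribosome-depleted total RNA, so kit and origin cannot be told apart, and tests were made within each set, with levels across sets given only side by side. A gene was tested with limma on log2(TPM + 1) if it was autosomal, protein-coding and above 2 TPM in at least 3 libraries of the set, and called at an adjusted p below 0.05 with a log2 fold change above 1 in size. Of the 10 genes, 10 passed this filter in vivo (11880 genes tested) and 9 in vitro (11541 genes tested), where Fosl1 was at or below 1.64 TPM in all 12 libraries. Some pairs of cultured replicates were close to identical, with a median absolute log2 difference over genes of 0.0610 for ESC-derived 3D EpiSC replicates 1 and 2, 0.0569 for embryo-derived 3D EpiSC replicates 2 and 3, and 0.0649 for 2D EpiSC replicates 1 and 2, against 0.103 to 0.271 for the other pairs of all groups.

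The promoters of Fos, Fosb and Nr4a1 are shown because, among all genes tested, Fos was the most like Fosb in vitro and Fosb the most like Fos in vivo, whereas Nr4a1 was called lower in embryo-derived 3D than in 2D EpiSC, where Fos and Fosb were called higher. The in vitro likeness includes the ESC-derived 3D EpiSC libraries, whose Fosb level was used to choose the genes. Fos lies on chromosome 12 (85473890 to 85477273, plus strand), Fosb on chromosome 7 (19302696 to 19310051, minus strand) and Nr4a1 on chromosome 15 (101254269 to 101274795, plus strand) of mm10. The RefSeq table (GRCm38.p6) held 7 of the 10 promoters, and those of Fosl1, Egr1 and Ier2 were not among them. The 250 bases before the RefSeq start, read on the gene's strand at chr12:85473640-85473889, chr7:19310046-19310295 and chr15:101266596-101266845, were as follows, with the core of the cyclic AMP response element (TGACG, either strand) in capitals.
Fos: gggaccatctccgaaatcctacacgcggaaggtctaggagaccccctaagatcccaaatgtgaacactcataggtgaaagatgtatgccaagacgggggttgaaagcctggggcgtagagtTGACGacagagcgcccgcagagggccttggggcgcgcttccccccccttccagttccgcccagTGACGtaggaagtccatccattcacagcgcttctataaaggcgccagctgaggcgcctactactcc
Fosb: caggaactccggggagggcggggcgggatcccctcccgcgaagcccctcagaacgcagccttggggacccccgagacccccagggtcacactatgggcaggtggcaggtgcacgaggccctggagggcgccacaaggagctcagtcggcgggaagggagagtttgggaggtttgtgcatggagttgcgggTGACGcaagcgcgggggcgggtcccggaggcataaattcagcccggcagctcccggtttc
Nr4a1: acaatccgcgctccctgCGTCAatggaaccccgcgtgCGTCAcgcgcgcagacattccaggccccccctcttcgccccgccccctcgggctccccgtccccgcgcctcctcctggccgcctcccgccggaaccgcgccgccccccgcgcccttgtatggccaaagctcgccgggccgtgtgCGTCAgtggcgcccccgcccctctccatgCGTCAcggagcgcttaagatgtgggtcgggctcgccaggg

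In the 300-base windows, TGACG or its complement was present in 4 of the 7 promoters (Fos, Fosb, Junb and Nr4a1) and in 20.8% of all 32851 promoters. Its first base lay at positions -129 and -66 before the start in Fos, at -60 in Fosb and at -106 in Junb, and Nr4a1 held 4 copies on the opposite strand. The full element TGACGTCA (1.79% of all promoters), the AP-1 motif searched as TGANTCA (7.81%) and the CArG box of SRF (1.63%) had no match in the 7 windows, which says only that these letters are not there. The windows began 250 bases before the RefSeq start, and bases further upstream were not searched. That start was not always the start of the quantified gene. The Nr4a1 window lay inside the span given above, and the Jund window (chr8:70697489-70697738) ended before the gene's start at 70698949.

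In the embryo, Fos, Fosb and Fosl1 were high at E4.5 and low at every other stage. Fos, the founding AP-1 subunit, was at 5.55, 6.63 and 5.14 TPM in the E3.5 ICM libraries, 389.6, 389 and 419 TPM at E4.5, 2.78, 4.14 and 3.43 TPM at E5.5, 7.29, 8.65 and 9.90 TPM at E6.5, and 0.695, 0.819 and 0.766 TPM at E7.5. Fosb, its close paralog, was at 2.08, 2.79 and 1.5 TPM at E3.5, 212, 173 and 160.2 TPM at E4.5, 2.698, 2.67 and 3.05 TPM at E5.5, 3.24, 5.13 and 2.42 TPM at E6.5, and 0.0717, 0.175 and 0.0107 TPM at E7.5. The E4.5 libraries of both genes stood above all others and close to each other, and all stages of Fos were free of overlap, whereas E3.5, E5.5 and E6.5 overlapped between neighbours for Fosb. Fosl1, a Fos family member that lacks a strong activation domain, was at 17.1, 21.7 and 18.6 TPM at E4.5, between 2.402 and 2.90 TPM at E6.5 and at or below 0.699 TPM in each library of the other stages, where 2 libraries at E3.5 and 2 at E7.5 listed it at 0.

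From E3.5 to E4.5, 7 of the 10 genes were called higher and 0 lower, where 5.88% of all tested genes were called higher and 11.9% lower. Fos rose by 5.89 on the log2(TPM + 1) scale (SE 0.13, adjusted p = 5.39e-13), which was a 69.1-fold rise of the mean TPM, and Fosb rose by 5.88 (SE 0.19, adjusted p = 3.25e-11). Egr1, a zinc finger factor that responds to ERK through SRF, rose by 4.33 (SE 0.11, adjusted p = 2.16e-12) from 2.10, 2.08 and 2.39 TPM to 59.3, 68.1 and 62.7 TPM. Fosl1 (4.25), Jun (2.94), Junb (1.55) and Ier2 (1.37) were also called. The other 3 genes were not: Jund changed by 0.21 (adjusted p = 0.149), Nr4a1 by -0.49 (adjusted p = 0.0202) and Ier3 by 0.91 (adjusted p = 0.00882), and the last was called under 5 of the alternative settings, with a pseudocount of 0.1 among them. At an unadjusted limma p below 0.05, 8 genes were higher and 1 lower. The median change over the 10 genes was 2.24, and over all tested genes -0.10.

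From E4.5 to E5.5 the change turned over, with 8 of the 10 genes called lower and 0 higher, where 9.47% of all tested genes were called lower and 14.9% higher. Fos fell by 6.5 (SE 0.13, adjusted p = 1.17e-13), Fosb by 5.58 (SE 0.19, adjusted p = 2.56e-11), Egr1 by 4.23 (SE 0.11, adjusted p = 1.59e-12) and Fosl1 by 3.74 (SE 0.13, adjusted p = 2.10e-11) on the log2 scale. Junb fell by 3.31, Jun by 2.66, Nr4a1 by 1.26 and Ier2 by 1.00, and the call of Ier2 was lost without E4.5 replicate 1, E4.5 replicate 2 or E5.5 replicate 1, where its change was between -0.99 and -0.92. Jund (-0.80, adjusted p = 5.83e-05) stayed under the fold threshold and Ier3 (-0.36, adjusted p = 0.25) did not pass the test. At an unadjusted limma p below 0.05, 9 genes were lower and 0 higher. The median change was -2.98 over the 10 genes and 0.16 over all tested genes. The E4.5 libraries enter both this comparison and the preceding comparison.

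The Jun family moved over a smaller range, and its members differed in level. Jun, the main partner of Fos in AP-1, was at 84.3, 84.1 and 90.4 TPM at E4.5 and between 9.27 and 22.4 TPM in the 12 libraries of the other stages. Junb was at 59.9, 46.2 and 54.3 TPM at E4.5, 19.2, 19.9 and 14.04 TPM at E3.5 and between 3.34 and 12.3 TPM from E5.5 on. Neither gene had an E4.5 library that overlapped another stage. Jund, the most constantly transcribed Jun gene, was the highest of the 10 genes on this per-length scale at E3.5, E5.5 and E6.5, at 140.3 ± 4.02, 93.3 ± 5.58 and 81.3 ± 15.8 TPM (SD, n = 3). Its level at E4.5, 163 ± 8.45 TPM, was exceeded there by Fos and Fosb. Jun overlaps the antisense gene Junos and Jund the antisense gene Gm11175, which were at or below 3.83 and 4.08 TPM in all libraries, and the 3' end of Junb overlaps Prdx2 (89.0 to 539 TPM) on the opposite strand. Whether strand was used in the quantification is not given in the sources used here, so reads in these overlaps cannot be assigned with certainty.

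**Figure D1:**
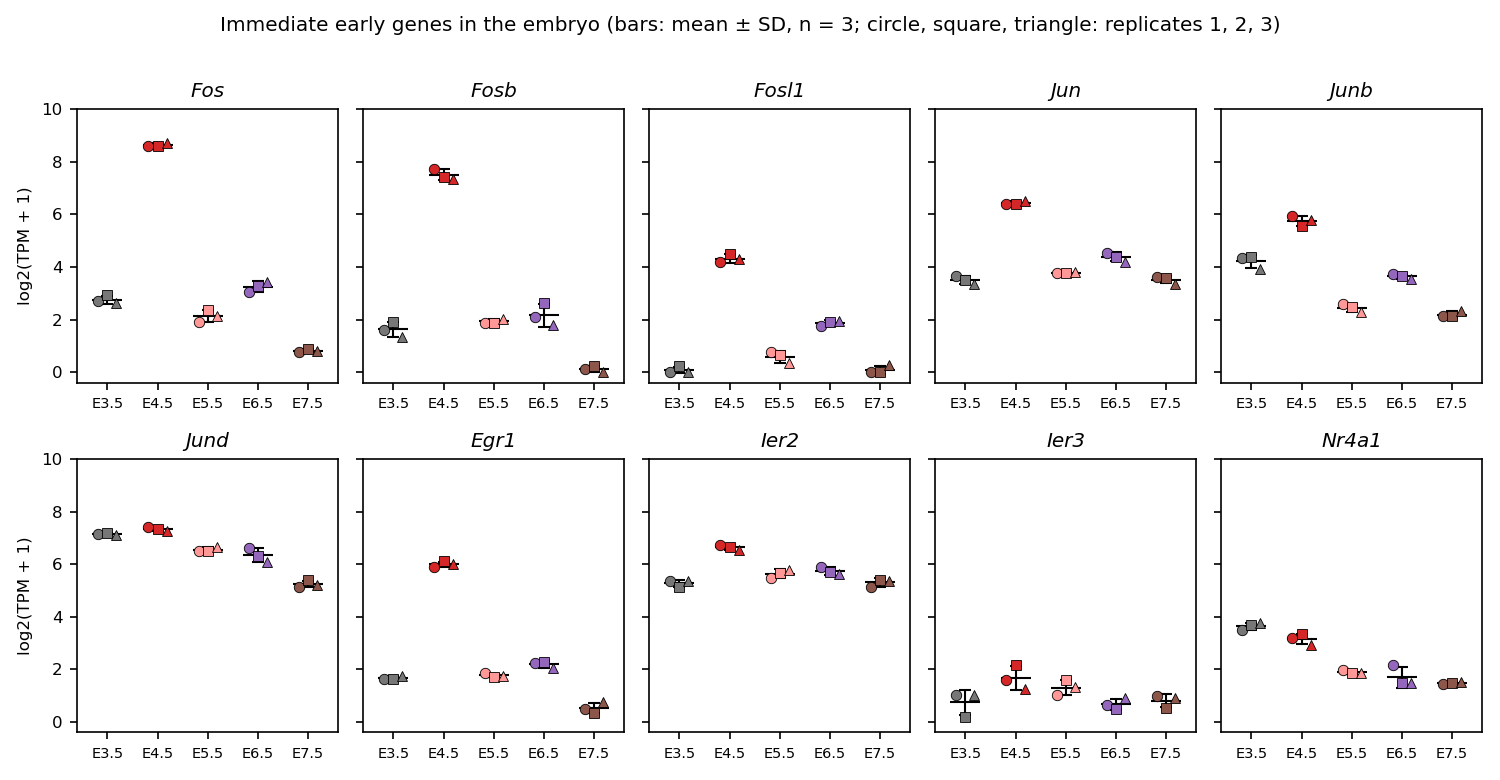
Level of each gene as log2(TPM + 1) at 5 embryonic stages, with 3 libraries as points and the mean ± SD as bars. The E4.5 points of Fos, Fosb, Fosl1, Jun, Junb, Jund, Egr1 and Ier2 stand above those of all other stages, whereas Nr4a1 is highest at E3.5 and Ier3 is at or below 3.47 TPM in all libraries.

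The remaining genes did not share 1 profile. Ier2, a short nuclear protein of the immediate early response, was at 106, 100.4 and 91.997 TPM at E4.5 and between 34.0 and 58.5 TPM in the other 12 libraries. Nr4a1, an orphan nuclear receptor, was highest at E3.5 with 10.3, 11.9 and 12.4 TPM, lower at E4.5 with 8.18, 9.06 and 6.66 TPM, and between 1.73 and 3.47 TPM afterwards. Ier3, which is linked to ERK signalling and cell survival, was between 0.149 and 3.47 TPM in all 15 libraries and therefore near the lower limit of the table.

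Between E5.5 and E6.5, when 0.715% of all tested genes were called higher and 0.48% lower, 3 of the 10 genes were called higher and 0 lower. Fosl1 rose by 1.31 (SE 0.13, adjusted p = 3.43e-05), Junb by 1.19 (SE 0.14, adjusted p = 0.000147) and Fos by 1.11 (SE 0.13, adjusted p = 0.000126). Jun (0.59, adjusted p = 0.00321) and Egr1 (0.41, adjusted p = 0.0284) were higher without reaching the fold threshold, and Fosb was not (0.23, adjusted p = 0.493). By the unadjusted limma p alone, 5 genes were higher and 1 lower. The median change was 0.32 over the 10 genes and -0.06 over all tested genes.

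From E6.5 to E7.5, 6 of the 10 genes were called lower and 0 higher, where 1.94% of all tested genes were called lower and 10.6% higher. Fos fell by 2.44 (SE 0.13, adjusted p = 4.19e-09), Fosb by 2.04 (SE 0.19, adjusted p = 1.92e-06) and Fosl1 by 1.80 (SE 0.13, adjusted p = 1.03e-07), and all of them were at or below 0.819 TPM in each E7.5 library. Egr1 fell by 1.66, Junb by 1.45 and Jund by 1.09, and the call of Jund was lost without E6.5 replicate 1 (-0.95). Jun (-0.87, adjusted p = 1.63e-05) was called only with rescaled TPM (-1.18). By the unadjusted limma p alone, 8 genes were lower and 0 higher. The median change was -1.27 over the 10 genes and 0.31 over all tested genes, and rescaling the libraries brought the latter to 0.01.

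Collection and cell content differed along with the stages and are given here as measured or stated facts whose part in the changes was not tested. By the study's methods, the E3.5 ICM was cut out with a laser. E4.5 blastocysts went through immunosurgery, with serum incubations at 37 °C, then 3 min in trypsin at 37 °C, and single cells were picked by the absence of a Pdgfra:H2B-GFP signal. E5.5 to E7.5 embryos were kept in an enzyme-free buffer for 30 min at 4 °C and dissected by hand, so stage and handling cannot be told apart. RNA was fragmented for 6 min at 85 °C at E3.5 and E4.5 and for 4 min at 94 °C later. Among 13 heat shock genes, read against the shares given above, Hspa1a (1.97), Hspa1b (1.91) and Hspb1 (1.20) were called higher at E4.5 and 0 lower. At E5.5, Hspb1 (-3.63) and Hsph1 (-1.03) were called lower and 0 higher. At an unadjusted limma p below 0.05, 5 were higher and 5 lower at that step. Hspa1a was at 6.39 to 11.3 TPM at E4.5 and 13.4 to 14.8 TPM at E5.5. Hspa1b was at 11.4 to 14.7 TPM and 18.4 to 23.1 TPM, so both were higher at E5.5 without overlap.

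The epiblast marker Pou5f1 was present at every stage, from 378 to 419.8 TPM at E4.5 and from 241 to 258 TPM at E7.5, but markers of other lineages were present too. The summed level of 5 trophoblast markers (Cdx2, Elf5, Gata3, Tfap2c and Krt7) was 454 to 481 TPM at E3.5, 410.2 to 419.9 TPM at E4.5 and 14.04 to 15.1 TPM at E5.5, and its part in the changes of the 10 genes was not tested. At the step to E4.5, Krt7, Tfap2c and Elf5 were called higher and Cdx2 and Gata3 lower, and 5 of 5 were called lower at the step to E5.5, together with Fos. Endoderm markers (Gata4, Gata6, Sox17, Foxa2 and Sox7) summed to 327 to 332 TPM at E3.5 and 46.4 to 59.9 TPM at E4.5. At that step 5 of 5 were called lower, where 11.9% of all tested genes were. Of 4 naive pluripotency markers, 4 were called lower at E5.5, where 9.47% of all tested genes were. The part of these markers was not tested either. The summed level of 5 visceral endoderm markers (Afp, Ttr, Apoa1, Amn and Cubn) was 109.9 to 123 TPM at E4.5 and 629 to 682 TPM at E5.5, where Apoa1 was at 346 to 376 TPM. At E7.5, 5 of 6 epiblast markers were called lower than at E6.5, with Utf1 at 6.13 to 10.4 TPM, and of 5 primitive streak and mesoderm markers 2 were called higher, Tbx6 (3.86) and T (1.66), and 3 lower. In bulk libraries, fewer cells of a type and less RNA per cell cannot be told apart.

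In culture, both 3D EpiSC had high Fos and Fosb, 2D EpiSC were intermediate and EpiLC were low. Fos was at 453, 199 and 201 TPM in embryo-derived 3D EpiSC, 267, 270.0 and 319 TPM in ESC-derived 3D EpiSC, 64.9, 58.6 and 37.4 TPM in 2D EpiSC, and 7.18, 0.840 and 1.59 TPM in EpiLC. Fosb was at 476, 131 and 129 TPM in embryo-derived 3D EpiSC, 151, 160.3 and 193 TPM in ESC-derived 3D EpiSC, 28.2, 26.9 and 15.5 TPM in 2D EpiSC, and 3.44, 0.0743 and 0.236 TPM in EpiLC. For both genes the 3D cultures overlapped each other, and neither overlapped 2D EpiSC, which did not overlap EpiLC. Fosl1 stayed between 0.406 and 1.64 TPM in all 12 libraries, and exceeded Fosb in EpiLC replicates 2 and 3.

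Embryo-derived 3D EpiSC differed from 2D EpiSC in both directions, with 2 of the 9 tested genes called higher and 2 lower, where 1.07% of all tested genes were called higher and 7.75% lower. Fosb was higher by 3.08 (SE 0.56, adjusted p = 0.00161) and Fos by 2.31 (SE 0.48, adjusted p = 0.00353), with means of 245 ± 199.7 against 23.5 ± 6.98 TPM and 284 ± 146 against 53.6 ± 14.4 TPM (SD, n = 3). On the log2 scale, the level of Ier3 fell by 2.55 (SE 0.55, adjusted p = 0.00464), with 11.9, 4.16 and 2.92 TPM against 35.5, 37.1 and 36.8 TPM. That of Nr4a1 fell by 1.02 (SE 0.25, adjusted p = 0.00942), with 15.7, 7.89 and 6.87 TPM against 21.7, 20.04 and 19.5 TPM. These lower calls were lost under some settings, and the higher calls were not: with near-identical replicates averaged, both were lost (Ier3 -2.30, adjusted p = 0.0622; Nr4a1 -0.84, adjusted p = 0.119), and Nr4a1 was also lost in 4 other settings. Egr1 (0.86, adjusted p = 0.208), Jun (-0.36, adjusted p = 0.544), Junb (-0.33, adjusted p = 0.403), Jund (0.40, adjusted p = 0.142) and Ier2 (0.38, adjusted p = 0.155) did not pass the test. The median change was 0.38 over the 9 genes and -0.08 over all tested genes.

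Against EpiLC, embryo-derived 3D EpiSC had 5 of 9 genes called higher and 0 lower, where 10.5% of all tested genes were called higher and 8.28% lower. Fosb was higher by 6.80 (SE 0.56, adjusted p = 1.37e-06), Fos by 6.28 (SE 0.48, adjusted p = 6.82e-07), Egr1 by 3.02 (SE 0.49, adjusted p = 0.000312), Jun by 2.86 (SE 0.41, adjusted p = 0.000126) and Junb by 1.97 (SE 0.28, adjusted p = 0.000107). Jund was higher by 0.82 (adjusted p = 0.00412), under the fold threshold, and Ier2, Ier3 and Nr4a1 did not pass the test. Taking the unadjusted limma p alone, 6 genes were higher and 0 lower. The median change was 1.97 over the 9 genes and 0.10 over all tested genes.

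2D EpiSC also exceeded EpiLC, with 6 of 9 genes called higher and 0 lower, where 15.2% of all tested genes were called higher and 5.14% lower. Fos was higher by 3.97 (SE 0.48, adjusted p = 2.83e-05), Fosb by 3.72 (SE 0.56, adjusted p = 0.00016), Jun by 3.22 (SE 0.41, adjusted p = 4.79e-05), Junb by 2.30 (SE 0.28, adjusted p = 3.04e-05), Egr1 by 2.16 (SE 0.49, adjusted p = 0.00278) and Ier3 by 2.01 (SE 0.55, adjusted p = 0.00861). Ier3 was called in the step from EpiLC to 2D EpiSC and not in that to embryo-derived 3D EpiSC (-0.54, adjusted p = 0.424), and it was lower in the latter than in 2D EpiSC. Taking the unadjusted limma p alone, 7 genes were higher and 0 lower. The median change was 2.16 over the 9 genes and 0.18 over all tested genes. The 3 comparisons among these groups share libraries, so their calls are not independent.

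**Figure D2:**
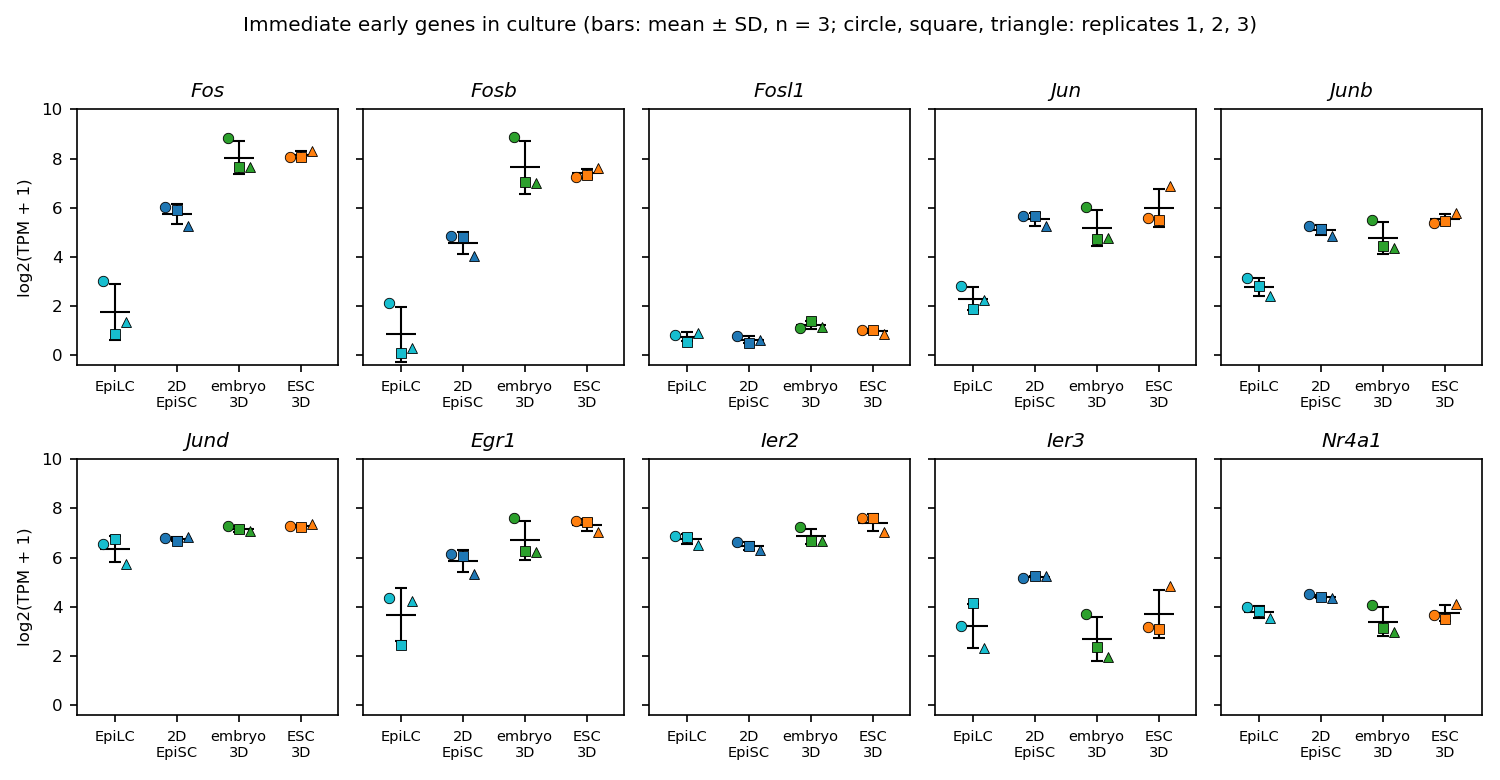
Level of each gene as log2(TPM + 1) in 4 cultures, with 3 libraries as points and the mean ± SD as bars. Fos and Fosb rise from EpiLC through 2D EpiSC to both 3D cultures, Jun and Junb separate EpiLC from the rest, and Ier3 and Nr4a1 are highest in 2D EpiSC.

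Jun, Junb and Egr1 were lower in each EpiLC library than in each library of the other cultures. Jun was at 6.01, 2.66 and 3.73 TPM in EpiLC, 50.01, 49.5 and 36.8 TPM in 2D EpiSC, 63.7, 25.7 and 26.0 TPM in embryo-derived 3D EpiSC and 46.6, 44.6 and 118 TPM in ESC-derived 3D EpiSC. Junb was at 7.85, 6.01 and 4.37 TPM in EpiLC, 37.3, 34.3 and 28.3 TPM in 2D EpiSC, 44.5, 20.6 and 19.5 TPM in embryo-derived 3D EpiSC and 41.1, 42.5 and 53.9 TPM in ESC-derived 3D EpiSC. For Jun and Junb, embryo-derived 3D EpiSC overlapped 2D EpiSC. Egr1 was at 19.6, 4.44 and 17.98 TPM in EpiLC, 69.5, 66.8 and 39.1 TPM in 2D EpiSC, 195, 76.0 and 74.3 TPM in embryo-derived 3D EpiSC and 176, 172 and 129 TPM in ESC-derived 3D EpiSC. Its groups overlapped only between the 3D cultures. Jund (53.0 to 162 TPM) and Ier2 (79.2 to 196 TPM) were high in all 12 libraries, Jund overlapped between EpiLC and 2D EpiSC, and Ier2 in EpiLC overlapped Ier2 in both 2D EpiSC and embryo-derived 3D EpiSC.

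For ESC-derived 3D EpiSC, whose columns were used to choose the genes, a gene was counted when no library overlapped and the mean log2(TPM + 1) differed by more than 1, and nothing is read from the counts. Against 2D EpiSC, 3 of 9 genes were counted higher, Fosb (2.83), Fos (2.42) and Egr1 (1.46), and 1 lower, Ier3 (-1.51), where 0.624% of all genes past the filter were counted higher and 9.14% lower. Against EpiLC, 5 were counted higher, Fosb (6.54), Fos (6.40), Jun (3.69), Egr1 (3.62) and Junb (2.75), and 0 lower, where the shares over all genes were 5.35% and 7.05%. Against embryo-derived 3D EpiSC, 0 were counted in either direction, where the shares over all genes were 2.01% and 1.83%. Without embryo-derived 3D EpiSC replicate 1, 4 were counted higher in that last comparison. The share over all genes was not computed for that setting, and absence of overlap is easier to reach with fewer libraries.

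**Figure D3:**
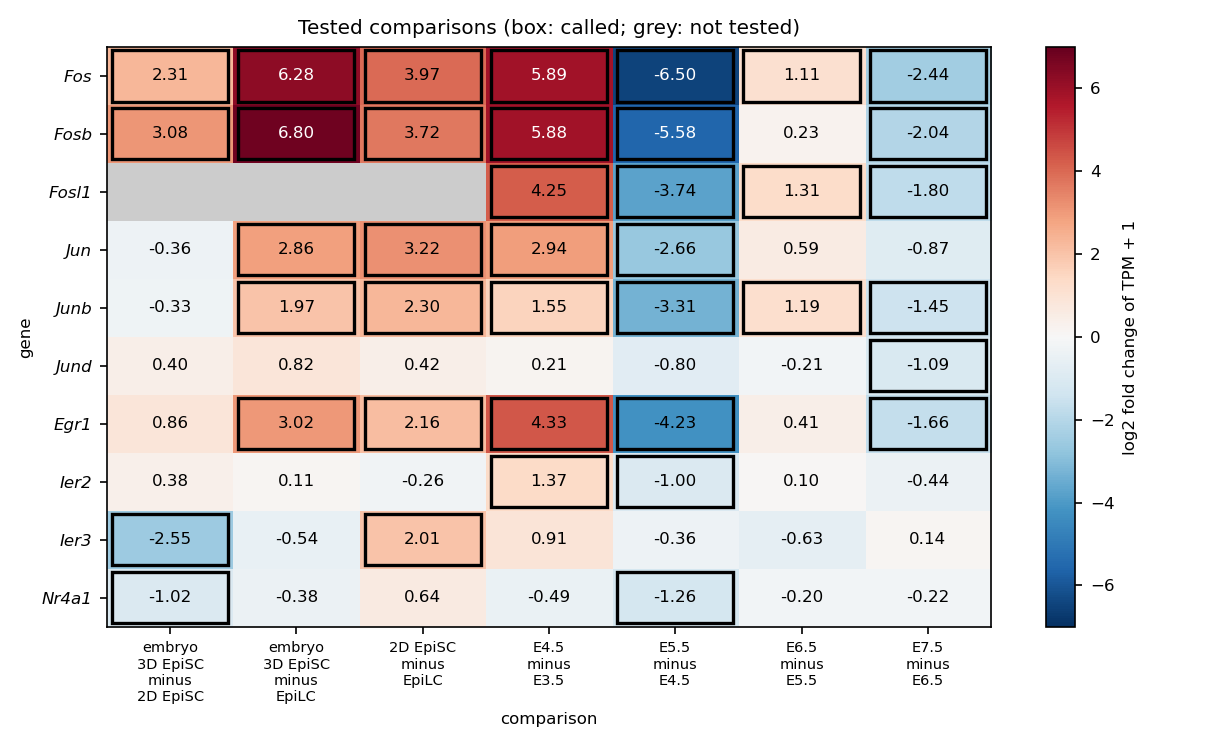
Log2 fold change of TPM + 1 for each gene (rows) in the 7 tested comparisons (columns), with boxes around called changes and grey where Fosl1 was not tested. Fos and Fosb are boxed in all columns except the step from E5.5 to E6.5, where only Fos is, and Fos reaches -6.5 at the step from E4.5 to E5.5.

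Embryo-derived 3D EpiSC replicate 1 stood apart for these genes. It was the highest of its 3 libraries for 9 of the 9 genes tested, with a median deviation from the group mean of 0.78 on the log2 scale, against -0.01 over all tested genes. Fosb was 3.66 times the mean of the other 2 libraries there, Ier3 3.36 times, Egr1 2.60 times, Jun 2.47 times, Fos 2.26 times, Junb 2.22 times and Nr4a1 2.12 times, whereas Ier2 was 1.47 times and Jund 1.14 times. The streak markers T (2.52 times) and Eomes (1.98 times) were also higher in that library. The endoderm markers were split, with Foxa2 (2.44 times) higher and Gata6 (0.566 times) and Sox17 (0.412 times) lower. Pou5f1 was at 0.902 times. The part of cell content in the result was not tested. Leaving this library out changed no call of Fos or Fosb, in either comparison of this culture. ESC-derived 3D EpiSC replicate 3 was high for Jun (2.59 times the mean of the other 2) and Ier3 (3.53 times) and low for Egr1 (0.741 times) and Ier2 (0.669 times). In the same library Gata6 was at 5.42 TPM against 0.0904 TPM, Sox17 at 6.73 against 0.248 TPM, and T at 1.74 times. Foxa2 (0.529 times) and Eomes (0.601 times) were lower there. In EpiLC, replicate 1 was highest for 7 of 9 genes, with Fos at 7.18 TPM, 5.91 times the mean of the other 2.

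**Figure D4:**
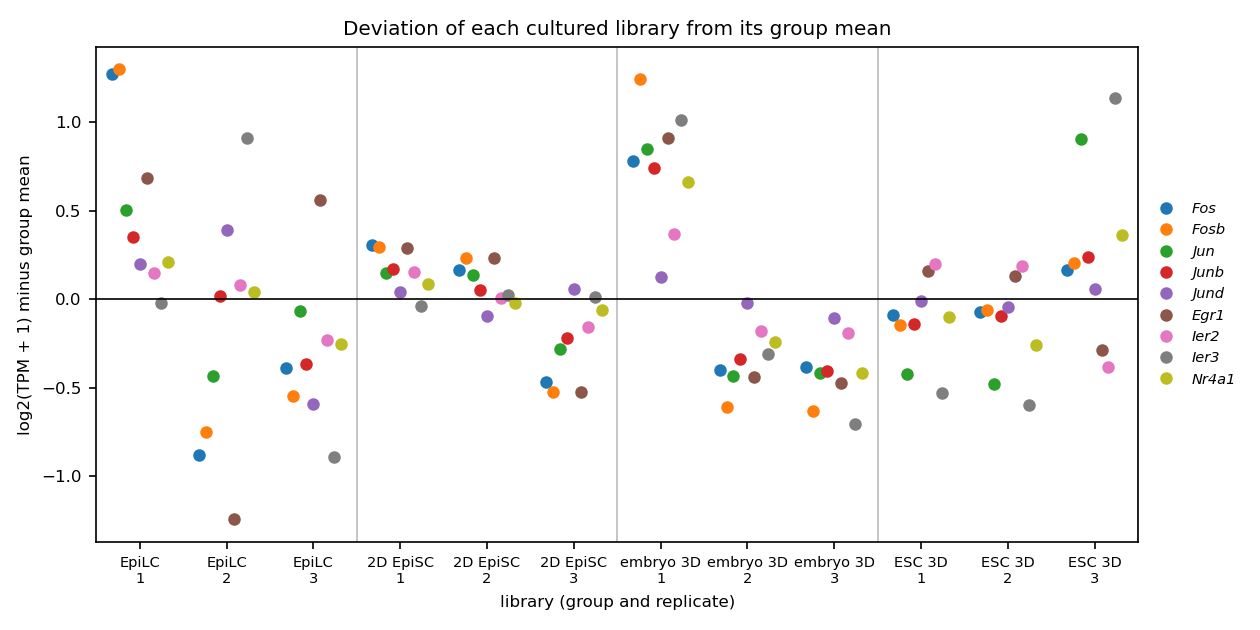
Deviation of log2(TPM + 1) from the group mean for each of 9 genes in the 12 cultured libraries, 1 column of points per library. All 9 genes lie above 0 in embryo-derived 3D EpiSC replicate 1, and Jun and Ier3 stand out upward in ESC-derived 3D EpiSC replicate 3.

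This spread was wide for cultured libraries and narrower in the embryo. The within-group SD on the log2 scale was 0.82 for Fosb, 0.80 for Ier3, 0.72 for Egr1, 0.69 for Fos and 0.60 for Jun in vitro, above that of at least 98.8% of all tested genes, whose median was 0.17. In vivo it was 0.16 for Fos, 0.13 for Egr1 and 0.12 for Jun, against a median of 0.17 over all tested genes, and it was above the median for Fosb (0.26), Nr4a1 (0.21), Ier3 (0.35) and Junb.

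The balance between these Fos and Jun genes changed with the groups. The sum of Fos, Fosb and Fosl1 was 599.9 ± 18.03 TPM at E4.5, against 303 ± 11.7 TPM for Jun, Junb and Jund, a ratio of 1.98 ± 0.0192 (SD, n = 3). At E3.5 and E5.5 the ratio was 0.0470 ± 0.00694 and 0.0612 ± 0.00629, at E6.5 0.136 ± 0.0338 and at E7.5 0.0177 ± 0.00201. In culture it was 2.38 ± 0.983 in embryo-derived 3D EpiSC, 1.70 ± 0.142 in ESC-derived 3D EpiSC, 0.414 ± 0.0971 in 2D EpiSC and 0.0544 ± 0.0485 in EpiLC. Fosl2, a further Fos family gene that is in neither sum, was at most 13.4 TPM in any library. The sum of the 3 Fos genes exceeded that of the 3 Jun genes in each library of E4.5 and of both 3D cultures, and in 0 of the other 18 libraries. This sum holds Fosb, which was used to choose the genes in ESC-derived 3D EpiSC, and libraries of both kits are only set side by side. Fosb was at 0.414 to 0.458 times Fos in 2D EpiSC, at 0.0884 to 0.479 times in EpiLC, and at 1.05, 0.657 and 0.641 times in embryo-derived 3D EpiSC. In ESC-derived 3D EpiSC, whose Fosb level was used to choose the genes, it was at 0.567 to 0.605 times. Jund made up 83.3% ± 1.81 of the Jun gene sum at E3.5, 53.8% ± 1.99 at E4.5 and 84.3% ± 1.09 at E5.5, and 88.7% ± 3.21 in EpiLC.

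**Figure D5:**
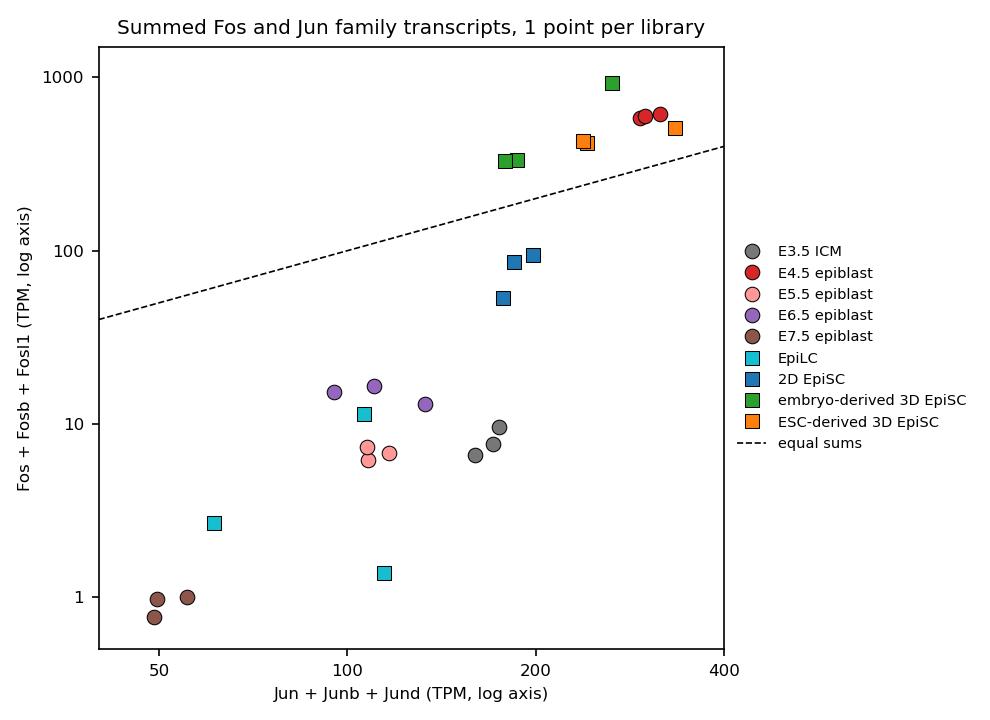
Summed TPM of Fos, Fosb and Fosl1 (vertical, log axis) against summed TPM of Jun, Junb and Jund (horizontal, log axis), 1 point per library, circles in vivo and squares in vitro. The 9 libraries of E4.5 and the 3D cultures lie above the dashed line of equal sums and the other 18 below it.

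The wider families were read from lists of other genes, against the shares of all tested genes given above. Of 24 other immediate early genes tested in vivo, 9 were called higher and 3 lower at E4.5 than at E3.5, led by Ier5 (4.66), the NF-kappaB inhibitor Nfkbia (3.87) and the kinase Plk3 (3.15), with a median of 0.42. The 3 called lower were near the share of all tested genes (11.9%). At E5.5, 14 of the 24 were called lower and 0 higher (1 at an unadjusted p below 0.05), with Klf2 (-5.52), Plk3 (-4.38) and Nfkbia (-4.26) in front and a median of -1.40. At E6.5, 0 were called by limma (3 higher and 1 lower at an unadjusted p below 0.05). At E7.5, 4 of the 24 were called higher (Phlda1 1.83, Zfp36l1 1.57 and Nfkbia 1.34 in front) and 0 lower (6 lower at an unadjusted p below 0.05). These counts were near the shares of all tested genes at that step, 10.6% higher and 1.94% lower. Of the 10 genes above, 6 were called lower there. In culture, 26 were tested, and the direction differed from that of Fos and Fosb: 1 was called higher in embryo-derived 3D than in 2D EpiSC (Klf2, 2.28) and 9 were called lower, with Gadd45b (-4.35), Arc (-3.71) and Phlda1 (-2.71) in front and a median of -0.56. Of the same 26, 9 were called higher and 3 lower in 2D EpiSC than in EpiLC, led by Cyr61 (4.98), Gadd45b (3.36) and Egr3 (1.88), and for embryo-derived 3D EpiSC against EpiLC these numbers were 4 and 7, led by Arc (-3.73), Cyr61 (3.37) and Gadd45g (-2.86).

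Other AP-1 family genes, read against the same shares, were mixed as well. Of 9 tested in vivo, Maff (2.92) and Atf3 (2.31) were called higher at E4.5, and 5 were called lower at E5.5, led by Jdp2 (-3.70), Atf3 (-3.29) and Fosl2 (-2.50), with 1 higher. Of 9 tested in vitro, 2 were called higher in embryo-derived 3D than in 2D EpiSC, Atf3 (2.24), a stress-induced repressor, and Jdp2 (1.62), and 3 lower, with Fosl2 (-1.68) in front. Against EpiLC, 4 were called higher in 2D EpiSC, led by Maff (2.22), Fosl2 (1.92) and Atf3 (1.40), and 3 in embryo-derived 3D EpiSC, Atf3 (3.64), Jdp2 (2.76) and Maff (1.03), with 0 lower in either (0 and 2 lower at an unadjusted p below 0.05). At E6.5, 0 were called by limma (2 higher and 3 lower at an unadjusted p below 0.05), and at E7.5 Jdp2 (1.45) and Atf7 (1.17) were higher.

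The genes upstream of the immediate early response were read against the shares of all tested genes given above. Of 18 tested genes for ERK, JNK and p38 kinases, SRF, its cofactors and CREB, 0 were called between embryo-derived 3D and 2D EpiSC (median -0.11) and 0 between 2D EpiSC and EpiLC (median 0.11), and 1, Rps6ka2 (1.20), between embryo-derived 3D EpiSC and EpiLC. At an unadjusted limma p below 0.05 and any fold, 2 were higher and 4 lower in the first comparison and 7 higher and 0 lower in the second. In vivo, 2 were higher and 2 lower at E4.5 (Mkl1 -1.88, Rps6ka2 1.78 and Elk3 -1.33 in front), 2 were higher at E5.5 (Rps6ka2 2.00 and Mapk3 1.20), 0 were called at E6.5 (0 higher and 3 lower at an unadjusted p below 0.05), and Elk3 (1.52) and Elk4 (1.11) were higher at E7.5. The 4 of 18 called at E4.5 and the 2 of 18 called at E7.5 were near the shares of all tested genes. Among the genes of ERK feedback, Dusp1, a phosphatase of MAP kinases and itself an immediate early gene, was called higher at E4.5 (3.20) and lower at E5.5 (-3.55), as Fos was. Of the 13 feedback genes tested in vivo, 4 were higher and 1 lower at E4.5 (with Etv4 1.70 and Spry2 -1.24 next), 2 higher and 3 lower at E5.5 (with Spred3 1.85 and Il17rd 1.51 next), 0 at E6.5 (2 higher and 3 lower at an unadjusted p below 0.05), and 1 higher and 1 lower at E7.5 (Spred1 1.24 and Etv5 -1.11). Of the 14 tested in vitro, 0 were called higher and 1 lower in embryo-derived 3D than in 2D EpiSC (Dusp5 -1.04). At an unadjusted limma p below 0.05 and any fold, 7 were higher and 4 lower there, with a median of 0.27 over the 14 genes. In 2D EpiSC, 1 was called lower than in EpiLC (Etv5 -1.04), with 5 higher and 5 lower by the unadjusted p. Embryo-derived 3D EpiSC had 4 called above and 2 below EpiLC (Dusp4 -1.53, Il17rd 1.46 and Spry4 -1.36 in front). By the unadjusted p, 6 were above and 5 below.

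Handling and cell content of the cultures differed too. 3D EpiSC were passaged with dispase for 20 min at 37 °C followed by TrypLE for 3 min, and 2D EpiSC with TrypLE, and for RNA extraction, described with the PCR assays, spheroids were freed from Matrigel and dissociated to single cells by the same steps. Whether the sequenced libraries followed this is not given in the sources used here. By the study's methods, the 3D medium held 50 ng/ml Activin A with XAV939 and Noggin, and the 2D EpiSC medium 20 ng/ml Activin A without these inhibitors. Culture form, medium, handling and, for embryo-derived 3D EpiSC, cell origin cannot be told apart. The counts that follow are read against the shares of all tested genes, 1.07% higher and 7.75% lower in embryo-derived 3D than in 2D EpiSC. Of 13 heat shock genes tested in vitro, 0 were called higher there (also 0 at an unadjusted p below 0.05). The 3 called lower were Hspb1 (-3.28), Hspa1a (-1.42) and Hspa1b (-1.20). Hspb1 (-2.57) was the 1 called lower in embryo-derived 3D EpiSC than in EpiLC, near the share of 8.28%. Hspa1b (1.11) and Hspa1a (1.09) were higher in 2D EpiSC than in EpiLC, near the share of 15.2%. Of 4 endoderm markers tested, Foxa2 (1.19) was called higher and Gata4 (-2.49) and Sox17 (-1.77) lower in embryo-derived 3D than in 2D EpiSC, and 2 of 4 fibroblast markers and 1 of 3 trophoblast markers were called lower. Against EpiLC, 3 of 3 streak markers tested and 3 of 4 endoderm markers were called higher in embryo-derived 3D EpiSC, where the share was 10.5%. In 2D EpiSC 3 of 3 and 4 of 4 were called higher than in EpiLC, where the share was 15.2%. The part of these markers in the changes of Fos and Fosb was not tested. The visceral endoderm markers summed to at most 3.61 TPM in every culture. In the embryo, Hspa1b was lower at E6.5 (-1.01), and Hspa1b (-2.42) and Hspa1a (-2.31) were lower at E7.5.

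The gene most like Fosb over the 12 cultured libraries was Fos, with a root mean square difference of 0.332 between their centred log2(TPM + 1) values, followed by Foxa2 (1.29), Nefl (1.42), Pkdcc (1.48) and Egr1 (1.5). Jun stood in place 8, Junb in place 38 and Nr4a1 in place 8241. The 12 libraries include those of ESC-derived 3D EpiSC, whose Fosb level was used to choose the genes, so this ranking is only a description. Foxa2, a forkhead factor of axial mesendoderm and endoderm, was at 0.559 to 0.721 TPM in EpiLC, 24.6 to 33.0 TPM in 2D EpiSC, 50.1 to 123 TPM in embryo-derived and 17.2 to 32.6 TPM in ESC-derived 3D EpiSC, so unlike Fosb it overlapped between 2D and ESC-derived 3D EpiSC. Over the 15 embryo libraries, the genes most like Fos were Fosb (0.431), Itga7 (0.809), Egr1 (0.866), Nppb (0.870) and Ctsll3 (0.987). Itga7, an integrin subunit that binds laminin, was at 49.7 to 61.5 TPM at E4.5 and at most 2.78 TPM at the other stages, Nppb, a natriuretic peptide, at 44.4 to 70.1 TPM and at most 4.17 TPM, and Ctsll3, a cathepsin-like protease, at 31.3 to 32.9 TPM and at most 0.123 TPM. In culture, Itga7 was at or below 1.36 TPM, Nppb at or below 0.237 TPM and Ctsll3 listed at 0, whereas Fos reached 453 TPM there.

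Side by side and with no test across kits, the 3D cultures had Fos at 199 to 453 TPM and Fosb at 129 to 476 TPM, where the E4.5 libraries had 389 to 419 and 160.2 to 212 TPM and the 9 later embryo libraries at most 9.90 and 5.13 TPM. EpiLC had Fos at 0.840 to 7.18 TPM, inside the range of 0.695 to 9.90 TPM spanned by E3.5 and E5.5 to E7.5. Egr1 was at 74.3 to 195 TPM in the 3D libraries and 59.3 to 68.1 TPM at E4.5, Nr4a1 at 6.87 to 16.3 and 6.66 to 9.06 TPM, and Ier3 was at or above 2.92 TPM in all cultured libraries and at or below 3.47 TPM in all embryo libraries. Fosl1 was at 17.1 to 21.7 TPM at E4.5 and at most 1.64 TPM in 3D culture.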

How the data were processed

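The members and the gene lists were chosen with earlier results of these data known. Reads were trimmed with cutadapt 2.4, aligned to mm10 with STAR and quantified with StringTie against GENCODE release M19, and the authors deposited TPM per gene, which keeps no sequencing depth. The submitters' table of 27 libraries was used, and the other samples of the 35 in the series were not analysed here. Lines sharing a gene identifier were summed. Biotypes came from GENCODE release M21. Genes past the filter were tested on log2(TPM + 1) with limma 3.58.1 in R 4.3.3, without a trend, in 1 fit of the 12 in vitro and 1 of the 15 in vivo libraries, with Benjamini-Hochberg adjustment over all genes of a comparison. The scripts were tested on simulated data. All 10 members were named, and of each other list at most the 3 called genes with the largest change per comparison, plus the 5 genes with the smallest root mean square difference to Fosb in vitro and to Fos in vivo. Libraries, such as embryo-derived 3D EpiSC replicate 1, were left out in turn. Other alternatives were TPM rescaled by median-of-ratios factors, a fit of only the compared groups, a replicate block, an eBayes trend, the low-value filter dropped, 0.1 as pseudocount, all 27 libraries in 1 fit, and near-identical replicates averaged.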

Additional observations from a re-analysis of the deposited data

How the results depend on the processing

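Of the values recomputed under the alternatives, 1405 kept their direction and their side of the threshold (or, for counts, stayed within 1.5 times), 11 lost the threshold, 7 gained it, 4 reversed and 11 counts or untested values moved further. The number of the 9 genes called lower in embryo-derived 3D than in 2D EpiSC was 2, 1 with rescaled TPM, 0 with near-identical replicates averaged and 1 to 2 when 1 library was left out. In ESC-derived against embryo-derived 3D EpiSC the count of genes higher ranged from 0 to 4 when 1 library was left out. The count of 4 came without embryo-derived 3D EpiSC replicate 1, with no share over all genes to set beside it. At the step from E5.5 to E6.5, the share of all tested genes called rose to 2.21% with a pseudocount of 0.1. The values that reversed were not called in any direction: Ier2 between embryo-derived 3D EpiSC and EpiLC was -0.016 with rescaled TPM and -0.069 without embryo-derived 3D EpiSC replicate 1, and at the step from E6.5 to E7.5 Ier3 was -0.0016 with rescaled TPM and Nr4a1 0.01 without E6.5 replicate 1. The leave-one-out ranges were -0.069 to 0.21 for Ier2 and -0.33 to 0.01 for Nr4a1. Fos at the step from E5.5 to E6.5 missed the threshold in 1 fit of all 27 libraries (adjusted p = 0.0511 with limma). The cause was not tested. TPM keeps no depth, so no counting error could be given.

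Replicate numbers did not pair the samples: same-numbered libraries deviated from their group means with a mean correlation of -0.0299 over 18 pairs in vitro and -0.0166 over 30 pairs in vivo, against 0.0122 and 0.00835 for other numbers. With the replicate block, 2 genes were called higher and 2 lower in embryo-derived 3D than in 2D EpiSC, 7 were higher at E4.5 and 8 lower at E5.5, and no count of calls moved by over 1.5 times.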
